A study of Mus musculus with 6 samples.

Results

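The 47 genes described here make the main branches of DNA double-strand break repair and of the Fanconi anemia pathway, which repairs crosslinks between DNA strands. They were taken by gene symbol from a table of 47122 gene models and were followed in ovaries of newborn mice, with Bcas2 intact or knocked out in oocytes. All 47 symbols were found. Of these, 45 had a level of at least 1 FPKM (fragments per kilobase of gene length, scaled to the size of the library) in at least 3 of the 6 libraries and entered the comparison. RNA of ovaries at 1 day post partum (dpp) was sequenced in 3 samples labelled WT and 3 labelled BCAS2 cKO, a conditional knockout in oocytes. Bcas2 encodes a subunit of the PRP19 and CDC5L splicing complex, and the series asks how meiosis and alternative splicing in oocytes depend on it. The sources used here do not give strain, Cre driver, deleted exons or whether animals were pooled, and 1 label of every sample speaks of granulosa cells. The p-values therefore reflect only the variation among these libraries, part of which may be technical.

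Cells mend a double-strand break along competing routes. In homologous recombination the ends are cut back to single strands, bound by replication protein A and then paired with a matching sequence. In end joining the Ku heterodimer holds the ends for a ligase. The Fanconi core complex attaches ubiquitin to FANCD2 and FANCI at stalled forks and hands the lesion to nucleases and to recombination. Oocytes of the fetal ovary make breaks on purpose in meiotic prophase and repair them before they arrest around birth, while dividing somatic cells use the same genes at replication, so an ovary holds transcripts from both. Fewer cells of a type and less RNA per cell cannot be told apart in such samples.

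Start-site sequences were looked at because repair genes are known targets of E2F, the family of transcription factors that turns on genes of S phase. RefSeq windows of the 250 bases before the start site (GRCm38.p6) were found for 36 of the 47 genes. The letters TTTCCCGC, a form of the E2F recognition sequence, or GCGGGAAA on the other strand, stood in 5 of these 36 windows (13.9%), against 2.11% of the 9965 tested protein-coding genes with a window and 1.03% of all 27025 genes with one. The 5 genes act at different steps: Bard1 and Brca2 in recombination, Fancg in the Fanconi core complex, Mdc1 in break signalling and Xrcc6 in end joining. Each is printed as 30 bases from 5′ to 3′ on the strand of the gene, with the motif in capitals.
Bard1: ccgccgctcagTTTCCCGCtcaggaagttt
Brca2: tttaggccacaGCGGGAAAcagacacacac
Fancg: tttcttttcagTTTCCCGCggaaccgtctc
Mdc1: ttttcttcagcctgTTTCCCGCcggtagcc
Xrcc6: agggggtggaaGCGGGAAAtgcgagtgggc

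These stretches lie at chr1:71103163-71103192 on the minus strand for Bard1, chr5:150522442-150522471 on the plus strand for Brca2, chr4:43010335-43010364 on the minus strand for Fancg, chr17:35841468-35841497 on the plus strand for Mdc1 and chr15:82016312-82016341 on the plus strand for Xrcc6. The motif begins 16 bases before the start site in Mdc1 and 209 bases before it in Bard1. The variant TTTGGCGC was in 0 of the windows and in 0.953% of those of tested genes. Other forms of the E2F sequence were not searched, so windows and stretches without a mark may hold them. CCAAT or ATTGG stood in 19 windows (52.8%, against 40.9% of tested genes), and the GC box GGGCGG or CCGCCC in 23 (63.9%, against 64.8%). A match is a description of letters and shows no bound factor.

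Longer stretches are printed for Bard1, Topbp1 and Rad52, members whose WT and cKO levels did not overlap, with matches to the same motifs in capitals and bases in exons of protein-coding genes (GENCODE M21) left out.
Bard1: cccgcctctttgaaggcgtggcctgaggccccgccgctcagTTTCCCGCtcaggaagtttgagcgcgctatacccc
Topbp1: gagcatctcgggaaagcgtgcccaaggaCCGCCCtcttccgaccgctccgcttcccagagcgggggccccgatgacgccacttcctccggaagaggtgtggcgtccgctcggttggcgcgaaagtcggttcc
Rad52: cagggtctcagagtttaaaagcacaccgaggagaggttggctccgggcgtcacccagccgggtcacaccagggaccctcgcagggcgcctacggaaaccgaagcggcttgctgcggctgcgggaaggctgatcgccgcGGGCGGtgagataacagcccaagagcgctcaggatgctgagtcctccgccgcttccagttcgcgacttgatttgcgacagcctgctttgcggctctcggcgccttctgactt
These are 76 bases at chr1:71103147-71103222 on the minus strand, 132 bases at chr9:103305083-103305214 on the plus strand and 250 bases at chr6:119902448-119902697 on the plus strand (GRCm38.p6). The Rad52 stretch also overlaps an exon of the noncoding antisense gene 4930540M05Rik. Exo1 and Fancf also had levels without overlap but are not printed. Exo1 had no window, and Fancf kept no stretch long enough once exon bases were left out.

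The genotype labels and the libraries were checked first. Bcas2 was at 54.5, 37.5 and 35.7 FPKM in the WT libraries, against 18.9, 21.9 and 18.3 FPKM in the cKO libraries, a ratio of means of 0.463 without overlap, with an unadjusted limma p of 0.000502 and an exact permutation p of 0.1, the smallest that 3 against 3 samples allow. Its limma p adjusted over all genes was 0.955, so the knocked-out gene itself did not pass the threshold applied to the repair genes. WT replicate 1 stood apart from the other libraries. Its endothelial marker genes summed to 192 FPKM, against 46.0 to 69.7 in the other 5, and its stroma markers to 1389 FPKM, against 400.3 to 652. All 10 pregranulosa markers and 11 of the 12 oocyte markers passed the filter on low values. The other oocyte marker, Oosp1, was listed at 0 in 3 libraries (WT replicate 1 and cKO replicates 1 and 2) and at most at 0.0660 FPKM elsewhere. The oocyte sum ran from 919.7 to 1439 FPKM in WT and from 1069 to 1419 in cKO. Of the 12 oocyte markers, 6 had a higher mean in cKO and 6 a lower one. Erythroid markers reached 13361 FPKM in cKO replicate 2 and at most 1210.1 elsewhere. Results are therefore given with and without WT replicate 1.

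Repair genes spanned a wide range of levels in the newborn ovary. Averaged over the 6 libraries, 8 of the 45 tested genes were above 20 FPKM, 22 between 5 and 20 FPKM and 15 below 5 FPKM. Their median was 6.16 FPKM, against 8.65 FPKM for all 14589 tested genes. The 3 genes of replication protein A led the order. Rpa2 had the highest mean, 46.8 FPKM, ahead of Rpa1 (36.2 FPKM), Rpa3 (32.4), Xrcc5 (31.9), Rad50 (31.7) and Topbp1 (31.0). Among the genes just named, from Rpa2 to Topbp1, the ranges of libraries overlapped between neighbours in the order. At the low end stood Lig4 (2.62 FPKM), Fancb (2.72) and Fanca (2.79), again with overlapping ranges. FPKM divides by the length of the deposited gene model, so a model with a long untranslated end reads lower per transcript.

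**Figure D1:**
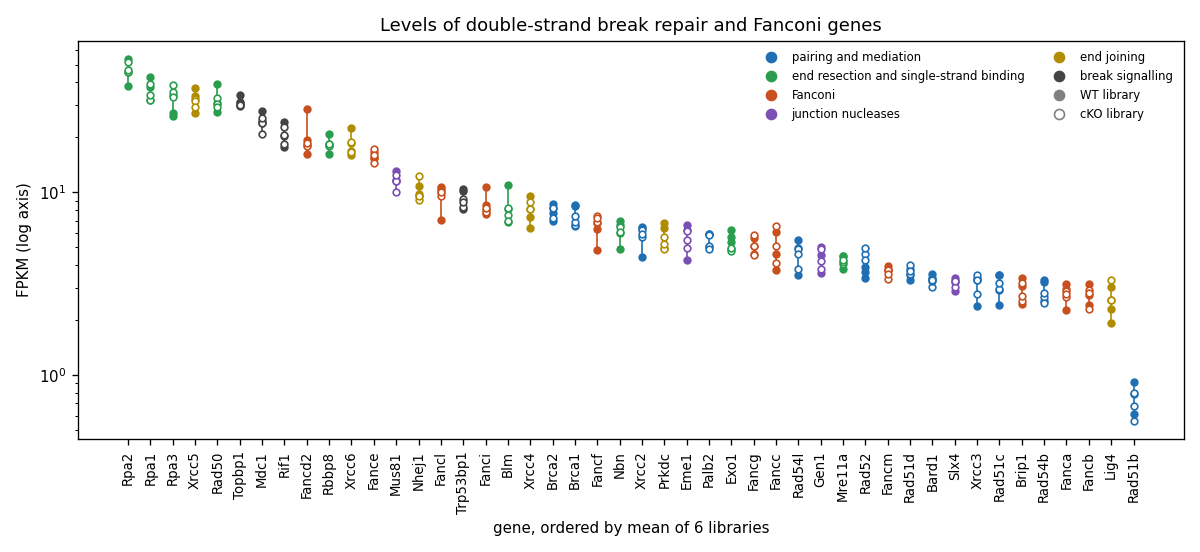
FPKM on a log axis for the 46 genes with a level above 0, ordered by their mean over 6 libraries; filled points are WT libraries, open points cKO libraries, colours the branches, and the vertical line spans the 6 libraries. Rpa2 is highest at a mean of 46.8 FPKM, and Rad51b, at 0.774 FPKM in WT, is the only gene drawn that lies below 1 FPKM in all 6 libraries.

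None of the 45 tested genes passed the test between WT and cKO ovaries. In limma, the count at an adjusted p under 0.05 was 0 in each direction, where 0% of all 14589 tested genes passed, and at an unadjusted p under 0.05 the count was also 0, against 3.04% of all genes. Log2 fold changes of FPKM + 1 ran from −0.20 for Exo1 to 0.29 for Rpa3. The median was −0.023, with 28 genes below 0 (17 above), beside a median of −0.0058 over all genes and 51.3% of them below 0. Another scaling moved this split: 36 of the 45 were below 0 after rescaling to TPM and 23 after quantile normalization. The WT and cKO values did not overlap for 2 members that were higher in cKO (4.2% of all genes) and for 3 that were lower (3.67% of all genes). On this scaling the share was near the background in both directions. After rescaling to TPM, 8 were lower (17.8%, against 5.95% of all genes) and 1 higher (2.34% of all genes). After quantile normalization, 2 were lower (3.37% of all genes) and 3 higher (4.76%). The 95% interval of the fold change lay within 0.5 to either side of 0 for 38 of the 45 genes and within 1 for all 45, with a median reach of 0.32 around the estimate. For all 45 genes a change of the size seen in Bcas2 (−1.05) thus lay outside the unadjusted interval, although a change of that size did not pass the adjusted test.

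**Figure D2:**
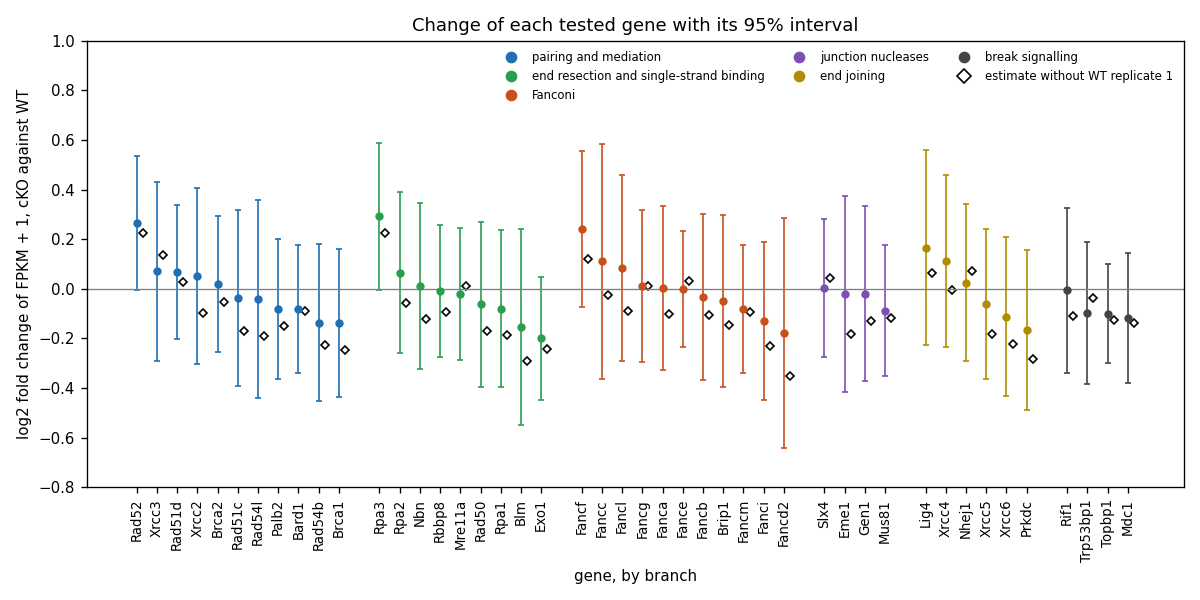
Log2 fold change of FPKM + 1, cKO against WT, for the 45 tested genes by branch; bars are 95% intervals from limma and open diamonds are the estimates without WT replicate 1. All 45 intervals include 0, and 34 of the diamonds lie below 0, against 28 of the estimates from all libraries.

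Branch medians all lay near 0. The median log2 fold changes were −0.037 for strand pairing and its mediators (11 tested), −0.023 for resection and single-strand binding (9) and −0.00047 for the Fanconi genes (11). The medians of the other branches were −0.020 for the junction nucleases (4), −0.019 for end joining (6) and −0.099 for break signalling (4). Each of the 6 was smaller than the median reach of a single member's 95% interval. That reach belongs to single genes and is not an interval for a branch median. Differences between branches were not tested.

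Among the genes of strand pairing, Rad52 was higher in all 3 cKO libraries. Rad52, which anneals single strands, lies at chr6:119878781-119899789 (GRCm39, plus strand). It was at 3.41, 3.67 and 3.90 FPKM in the WT libraries, against 4.61, 4.94 and 4.25 FPKM in the cKO libraries. The lowest cKO library, replicate 3, stood above the highest WT library, also replicate 3. The means were 3.66 ± 0.245 FPKM (WT) and 4.602 ± 0.346 FPKM (cKO) (SD, n = 3 each), a log2 fold change of 0.26 (standard error 0.11, 95% interval −0.0037 to 0.53). The limma p was 0.0524 unadjusted and 0.955 adjusted over all genes. The estimate was 0.23 without WT replicate 1, and it kept its sign under every alternative setting tried, between 0.22 and 0.36.

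Brca1 and Bard1, the ubiquitin ligase pair that favours resection, were lower on average in cKO. Brca1 was at 6.54, 8.44 and 8.50 FPKM in the WT libraries, against 6.64, 6.87 and 7.45 FPKM in the cKO libraries. WT replicate 1 was the lowest of the 6 and the other 2 WT libraries the highest, so the groups overlapped. Bard1 was at 3.41, 3.59 and 3.37 FPKM in the WT libraries, against 3.05, 3.27 and 3.31 FPKM in the cKO libraries, without overlap but with a narrow gap between WT replicate 3 and cKO replicate 3. Their log2 fold changes were −0.14 (95% interval −0.44 to 0.16) and −0.082 (−0.34 to 0.18), with adjusted limma p-values of 0.955 and 0.955.

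Brca2, a mediator of strand pairing, was at 6.94, 7.75 and 8.65 FPKM in the WT libraries, against 8.22, 8.21 and 7.21 FPKM in the cKO libraries, with mixed libraries and a log2 fold change of 0.019. Rad54b, a motor protein of strand invasion, was at 2.53, 3.23 and 3.30 FPKM in the WT libraries, against 2.66, 2.80 and 2.47 FPKM in the cKO libraries. Its lowest value was in cKO replicate 3 and WT replicate 1 lay within the cKO range, with a log2 fold change of −0.14 (95% interval −0.45 to 0.18). Palb2, the bridge from BRCA1 to BRCA2, was at 5.62 ± 0.531 FPKM (WT) and 5.25 ± 0.494 FPKM (cKO), and Rad54l, the paralog of Rad54b, at 4.64 ± 1.00 FPKM (WT) and 4.44 ± 0.571 FPKM (cKO) (SD, n = 3 each). The other mediators of this branch had means under 10 FPKM. Xrcc2 was at 5.76 and 5.95 FPKM in WT and cKO, Rad51d at 3.55 and 3.77, Rad51c at 3.16 and 3.02 and Xrcc3 at 3.02 and 3.21, with log2 fold changes between −0.037 and 0.070. Rad51b did not reach 1 FPKM in any library. Its values were 0.616, 0.913 and 0.792 FPKM in the WT libraries, against 0.675, 0.801 and 0.559 FPKM in the cKO libraries, on 83 to 127 recovered reads over a gene model of 8011 bases, and it was not tested. In this branch 0 rose, 0 fell and 11 did not pass.

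In the resection and single-strand binding branch, Rpa3 and Exo1 had the largest estimates, with opposite signs, and neither passed the test. Rpa3, the smallest subunit of replication protein A, lies at chr6:8255936-8259141 (GRCm39, minus strand). It was at 26.3, 27.0 and 34.2 FPKM in the WT libraries, against 35.3, 38.5 and 33.3 FPKM in the cKO libraries, with WT replicate 3 above cKO replicate 3 and below the other cKO libraries. The log2 fold change was 0.29 (standard error 0.13, 95% interval −0.0055 to 0.59), with a limma p of 0.0533 unadjusted and 0.955 adjusted. The large subunit Rpa1 was at 32.0, 37.4 and 42.6 FPKM in the WT libraries, against 32.1, 34.1 and 39.2 FPKM in the cKO libraries, and the middle subunit Rpa2 at 38.3, 45.7 and 53.8 FPKM and 45.2, 51.5 and 46.5 FPKM. Both overlapped between the groups, with log2 fold changes of −0.081 and 0.065. The Rpa3 to Rpa1 ratio of FPKM was 0.721 to 0.822 in WT and 0.850 to 1.13 in cKO, a gap that was not tested.

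Exo1, an exonuclease of long-range resection, lies at chr1:175708334-175738962 (GRCm39, plus strand). It was at 5.36, 5.68 and 6.24 FPKM in the WT libraries, against 4.93, 4.75 and 4.95 FPKM in the cKO libraries. All 3 cKO libraries lay below WT replicate 1, the lowest of the WT group. The means were 5.76 ± 0.444 FPKM (WT) and 4.88 ± 0.109 FPKM (cKO) (SD, n = 3 each), with a log2 fold change of −0.20 (standard error 0.10, 95% interval −0.45 to 0.048) and a limma p of 0.0985 unadjusted and 0.955 adjusted. Its estimate stayed between −0.30 and −0.15 under all alternative settings. Blm, the helicase that opens ends and dissolves junctions, was at 6.86, 8.10 and 10.9 FPKM in the WT libraries, against 7.49, 8.16 and 6.95 FPKM in the cKO libraries. WT replicate 3 alone stood above the rest, and the log2 fold change was −0.16 (95% interval −0.55 to 0.24).

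The sensor complex of Mre11a, Rad50 and Nbn and its cofactor Rbbp8 had no member that passed. Rad50 was at 32.5 ± 6.11 FPKM (WT) and 30.8 ± 1.78 FPKM (cKO), Nbn at 6.16 ± 1.11 FPKM (WT) and 6.16 ± 0.277 FPKM (cKO), Mre11a at 4.26 ± 0.399 FPKM (WT) and 4.16 ± 0.0833 FPKM (cKO) and Rbbp8 at 18.4 ± 2.40 FPKM (WT) and 18.1 ± 0.262 FPKM (cKO) (SD, n = 3 each). Log2 fold changes of the 4 ran from −0.063 to 0.012. Rad50 exceeded Mre11a by a ratio of 6.11 to 8.80 in WT and 6.87 to 8.01 in cKO. The Mre11a gene model of 11133 bases is longer than that of Rad50 (5153 bases), and FPKM divides by this length. In this branch 0 rose, 0 fell and 9 did not pass.

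Fancf was the Fanconi gene with the smallest p. It encodes an adaptor of the core complex and lies at chr7:51510325-51512015 (GRCm39, minus strand), as a gene with 0 introns in GENCODE M21. Fancf stood at 4.85, 6.30 and 6.75 FPKM in the WT libraries, against 6.87, 7.45 and 7.22 FPKM in the cKO libraries. The groups did not overlap, but WT replicate 3 and cKO replicate 1 lay close together and WT replicate 1 well below the rest. The log2 fold change was 0.24 (standard error 0.13, 95% interval −0.074 to 0.56), with a limma p of 0.113 unadjusted and 0.955 adjusted, and 0.12 without WT replicate 1. The gene shares 486 bases with Gas2 on the opposite strand, which was at 6.47 ± 0.770 FPKM (WT) and 6.81 ± 0.198 FPKM (cKO) (SD, n = 3 each). The strand setting of the counting is not given, so reads of the shared bases may belong to either gene.

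Fancd2 and Fanci, the pair that receives ubiquitin at a crosslink, varied mostly within the WT group. Fancd2 was at 16.1, 19.3 and 28.7 FPKM in the WT libraries, against 18.2, 18.0 and 18.6 FPKM in the cKO libraries. The 3 cKO libraries lay between WT replicates 1 and 2, and WT replicate 3 stood far above all others. Its log2 fold change was −0.18 with a wide 95% interval (−0.64 to 0.28), and −0.35 without WT replicate 1. Fanci was at 7.58, 8.55 and 10.7 FPKM in the WT libraries, against 8.05, 7.83 and 8.17 FPKM in the cKO libraries, with the same order of WT libraries and a log2 fold change of −0.13. The Fancd2 to Fanci ratio was 2.13 to 2.68 in WT and 2.26 to 2.29 in cKO.

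Fancm, the translocase that anchors the core complex, was at 3.74, 3.93 and 3.77 FPKM in the WT libraries, against 3.74, 3.34 and 3.57 FPKM in the cKO libraries. cKO replicate 1 lay just above WT replicate 1, the lowest WT library, and the other 2 cKO libraries lay below all WT libraries (log2 fold change −0.082, 95% interval −0.34 to 0.17). Fance, a core subunit that binds FANCD2, was at 16.6, 15.4 and 15.5 FPKM and 14.4, 17.2 and 15.9 FPKM, with overlapping libraries and a log2 fold change of −0.00047. The ubiquitin ligase subunit Fancl was at 9.40 ± 2.01 FPKM (WT) and 9.88 ± 0.326 FPKM (cKO) (SD, n = 3 each). The remaining core genes Fanca, Fancb, Fancc and Fancg and the helicase gene Brip1 had log2 fold changes between −0.050 and 0.11. Fancc was at 4.80 ± 1.15 FPKM (WT) and 5.26 ± 1.23 FPKM (cKO) (SD, n = 3 each). In this branch 0 rose, 0 fell and 11 did not pass.

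The junction nucleases, which cut joined DNA molecules apart, had estimates between −0.089 and 0.0028 on the log2 scale. Mus81 was at 11.6, 11.7 and 13.0 FPKM in the WT libraries, against 11.5, 12.5 and 10.1 FPKM in the cKO libraries. Its partner Eme1 was at 4.28, 6.21 and 6.61 FPKM and 4.98, 6.18 and 5.48 FPKM, with WT replicate 1 lowest. Both overlapped between the groups, at log2 fold changes of −0.089 (95% interval −0.35 to 0.17) and −0.020 (−0.42 to 0.38). Gen1, a resolvase, was at 3.60, 5.04 and 4.56 FPKM in the WT libraries, against 4.22, 4.92 and 3.80 FPKM in the cKO libraries. Slx4, the scaffold that holds several nucleases, was at 3.40, 3.24 and 2.88 FPKM in the WT libraries, against 3.26, 3.02 and 3.26 FPKM in the cKO libraries. For these too the values were mixed, with log2 fold changes of −0.020 and 0.0028, and 0 rose, 0 fell and 4 did not pass.

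End joining genes had estimates on both sides of 0. Prkdc, the DNA-dependent protein kinase recruited by Ku, lies at chr16:15455698-15660103 (GRCm39, plus strand) and was at 4.97, 6.83 and 6.35 FPKM in the WT libraries, against 5.67, 4.87 and 5.22 FPKM in the cKO libraries. WT replicate 1 lay inside the cKO range and the other 2 WT libraries above it. The log2 fold change was −0.17 (standard error 0.14, 95% interval −0.49 to 0.16), with an adjusted limma p of 0.955. Of the Ku subunits, Xrcc5 was at 27.3, 33.6 and 37.2 FPKM in the WT libraries, against 32.3, 31.5 and 29.3 FPKM in the cKO libraries. Xrcc6 was at 16.1, 18.5 and 22.4 FPKM in the WT libraries, against 16.8, 18.8 and 16.6 FPKM in the cKO libraries. In both, all cKO values lay between WT replicates 1 and 3, with log2 fold changes of −0.062 and −0.11. The Xrcc5 to Xrcc6 ratio was 1.72 ± 0.0790 among WT libraries and 1.79 ± 0.124 among cKO libraries (SD, n = 3 each).

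The ligase step had higher means in cKO. Lig4, the ligase, was at 1.94, 3.02 and 2.31 FPKM in the WT libraries, against 2.58, 3.31 and 2.57 FPKM in the cKO libraries, with WT replicate 2 above 2 of the cKO libraries. Its scaffold Xrcc4 was at 6.36, 7.37 and 9.50 FPKM in the WT libraries, against 8.84, 8.11 and 8.09 FPKM in the cKO libraries, with WT replicate 3 highest of all. Their log2 fold changes were 0.17 (95% interval −0.23 to 0.56) and 0.11 (−0.24 to 0.46), and without WT replicate 1 they were 0.062 and −0.0050. Nhej1, the XLF factor that aligns the ends, was at 10.04 ± 0.660 FPKM (WT) and 10.3 ± 1.78 FPKM (cKO) (SD, n = 3 each). In this branch 0 rose, 0 fell and 6 did not pass.

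The break signalling genes had the lowest branch median. Topbp1, which activates the checkpoint kinase ATR, lies at chr9:103182351-103227627 (GRCm39, plus strand) and was at 31.0, 31.3 and 34.2 FPKM in the WT libraries, against 29.9, 29.8 and 29.96 FPKM in the cKO libraries. The 3 cKO libraries lay within a very narrow band just below the WT group. The means were 32.1 ± 1.79 FPKM (WT) and 29.9 ± 0.0751 FPKM (cKO) (SD, n = 3 each), with a log2 fold change of −0.10 (standard error 0.084, 95% interval −0.30 to 0.099) and a limma p of 0.272 unadjusted and 0.955 adjusted. Trp53bp1, which holds back resection, was at 10.4, 10.1 and 8.08 FPKM in the WT libraries, against 9.24, 8.33 and 8.85 FPKM in the cKO libraries. WT replicate 3 was the lowest of the 6, unlike in most other members, and the log2 fold change was −0.097 (−0.037 without WT replicate 1). Its partner Rif1 was at 17.7, 20.2 and 24.3 FPKM in the WT libraries, against 22.7, 18.3 and 20.5 FPKM in the cKO libraries. Mdc1, which reads the phosphorylated histone at a break, was at 24.7, 23.9 and 27.8 FPKM in the WT libraries, against 20.9, 24.0 and 25.4 FPKM in the cKO libraries. Both overlapped between groups, at log2 fold changes of −0.0066 and −0.12, and in this branch 0 rose, 0 fell and 4 did not pass.

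H2ax, the histone variant that is phosphorylated around breaks, was listed at 0 FPKM in all 6 libraries. Its gene model on chromosome 9 from position 44246012 to 44247374 lies wholly inside the model of Dpagt1 (position 44237314 to 44247374) on the same strand, and both end at the same base (GRCm39). Dpagt1, an enzyme of protein glycosylation, was at 6.63, 6.08 and 5.17 FPKM in the WT libraries, against 5.29, 5.08 and 5.61 FPKM in the cKO libraries. The related variant gene H2az1 was at 89.4 to 141 FPKM. Atrip, the gene of ATR's partner, was likewise listed at 0 in all libraries and overlaps the readthrough gene Atrip-trex1 on the same strand. The listed 0 is therefore given as it stands and is not read as a level of H2ax.

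**Figure D3:**
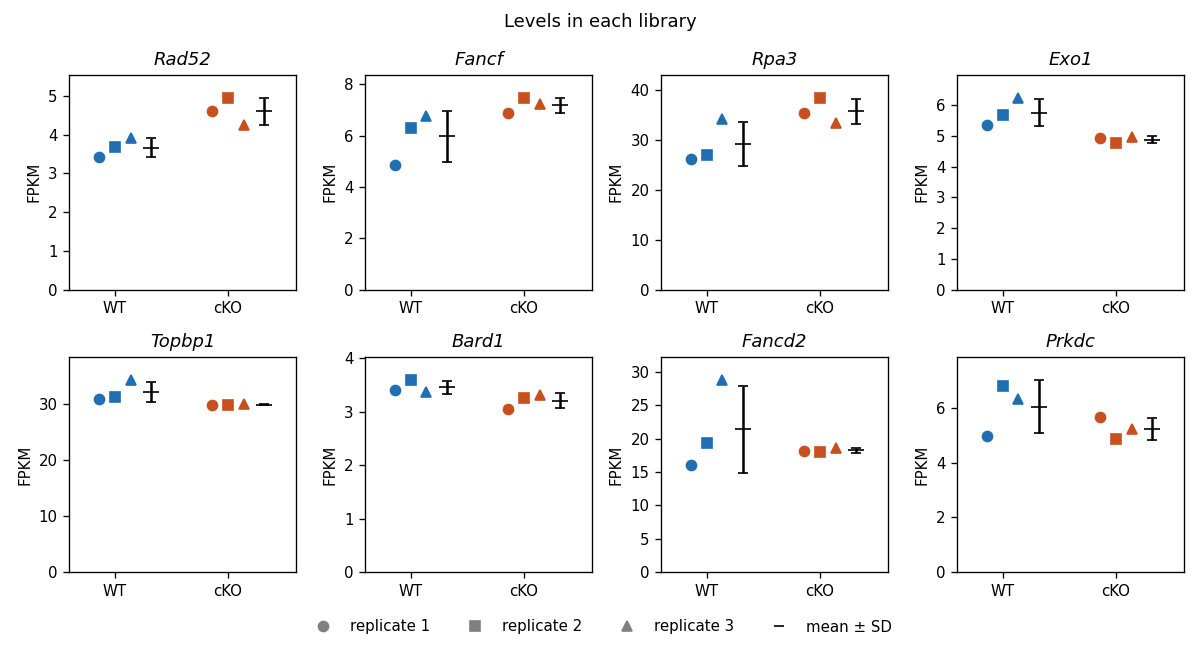
FPKM in each library for 8 members, with WT in blue, cKO in orange, marker shapes for the replicate number and the mean ± SD beside each group; axes start at 0. Rad52 and Fancf lie higher and Exo1, Topbp1 and Bard1 lower in all 3 cKO libraries, while Rpa3, Fancd2 and Prkdc overlap between the groups.

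The WT libraries varied more among themselves than the cKO libraries in most of these genes. WT replicate 1 had the lowest level of the 6 libraries in 28 of the 45 genes (62.2%), against 28.7% of all tested genes. WT replicate 3 had the highest level in 24 of the 45 (53.3%), against 19.1% of all tested genes. The mean of the cKO libraries fell inside the range of the WT libraries for 36 of the 45 (80%, against 67.1%). The SD of log2(FPKM + 1) was larger in WT than in cKO for 37 of the 45, and for 9337 of all 14589 tested genes. Its medians in the 45 were 0.20 in WT and 0.089 in cKO, beside 0.19 and 0.14 over all genes.

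WT replicate 1 was the lowest WT library in all 6 branches, by the least in break signalling. Relative to its mean over the 6 libraries, the mean log2(FPKM + 1) of the tested Fanconi genes was −0.17, 0.052 and 0.12 in WT replicates 1, 2 and 3 and −0.029, 0.0092 and 0.016 in the cKO replicates. End joining genes were at −0.17, 0.055 and 0.12 in WT and between −0.064 and 0.069 in cKO. Break signalling genes were at −0.0041, 0.025 and 0.10 in WT. The oocyte markers had the same order of WT libraries, at −0.30, −0.12 and 0.39, as did the 20 S phase and proliferation genes, at −0.17, 0.080 and 0.18. Endothelial markers ran the other way, at 1.31, −0.076 and −0.57, and stroma markers at 1.23, 0.10 and −0.48. The likeness in WT did not extend to the cKO libraries. In cKO replicates 1, 2 and 3 the S phase genes were at −0.25, 0.22 and −0.061 and the oocyte markers at −0.018, 0.14 and −0.097. The 45 repair genes lay closer together there, at −0.021, 0.021 and −0.024. The part of these tissue genes in the repair gene levels was not tested.

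**Figure D4:**
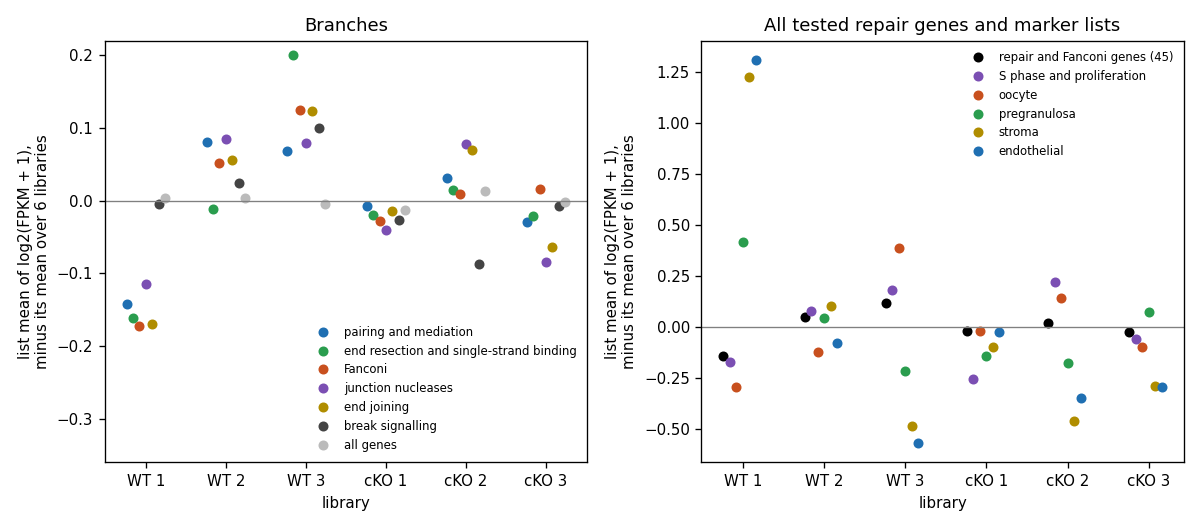
Mean log2(FPKM + 1) of each list in each library, as the difference from the mean of that list over the 6 libraries; branches and all tested genes at left, the 45 repair and Fanconi genes and marker lists at right, on axes of different range. In WT replicate 1 the Fanconi mean is at −0.17 and the endothelial mean at 1.31; in WT replicate 3 they are at 0.12 and −0.57.

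Without WT replicate 1 the estimates moved down. The median of the 45 log2 fold changes was −0.10, against −0.0031 over all genes, and 34 of the 45 were below 0. All 3 cKO libraries lay below both remaining WT libraries in 18 of the 45 genes, or 40%, where this held for 8.37% of all tested genes. They lay above in 2 genes (7.9% of all genes). The 18 were Brca1, Palb2, Bard1, Rad51c, Xrcc2, Rad54l and Rad54b in strand pairing, Nbn and Exo1 in resection, Fanca, Fancd2, Fanci, Fancl and Fancm in the Fanconi branch, Eme1 among the nucleases, Xrcc5 and Prkdc in end joining, and Topbp1. In limma 0 members passed at an adjusted p under 0.05 (0% of all genes). At an unadjusted p under 0.05 there was 1 member (3.61% of all genes). This was Prkdc, whose limma p was 0.0497 unadjusted and 0.9998 adjusted. The lowest estimates were those of Fancd2 (−0.35), Blm (−0.29), Prkdc (−0.28) and Brca1 (−0.25).

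That count rested on which WT library was left out. Without WT replicate 2, 4 of 45 were lower (8.48% of all genes) and 4 higher (8.86%). Without WT replicate 3, 4 were lower (13.3% of all genes) and 4 higher (13.6%). Leaving out a cKO library gave 4 lower without replicate 1 (6.44% of all genes) and 2 higher (7.86%), 4 lower without replicate 2 (5.73%) and 2 higher (6.24%), and 3 lower without replicate 3 (11.9%) and 3 higher (11.1%). With another scaling and without WT replicate 1, an alternative added after seeing the data, it was 14 after quantile normalization (8.60% of all genes), 17 after median-of-ratios scaling (8.03%) and 23 after rescaling to TPM (11.7%). Without WT replicate 1 the median of the tested S phase and proliferation genes was −0.16 and that of the oocyte markers −0.12, while pregranulosa markers were at 0.037, endothelial markers at 0.096 and stroma markers at −0.064. Of the 65 other repair genes tested, 15 were then lower without overlap (8.37% of all genes) and 5 higher (7.9% of all genes), with a median of −0.041. The branch medians were then −0.098 for strand pairing, −0.12 for resection, −0.093 for Fanconi, −0.12 for nucleases, −0.094 for end joining and −0.12 for break signalling genes.

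Short members tended to have estimates above 0 and members with many introns below it, as among other genes. The 5 members with gene models under 2000 bases (Rpa2, Rpa3, Fancf, Fancl and Nhej1) all had estimates above 0, with a median of 0.083, beside 0.12 for the 2600 tested protein-coding genes of that length. Members of 6000 bases or more (17 genes) had a median of −0.050, beside −0.084. Sorted by introns in GENCODE M21, the 13 members with 20 or more introns had a median of −0.097, beside −0.11 for all such genes, and the 13 members with fewer than 10 had 0.065, beside 0.029. Across the 45 members, which share their libraries, Spearman's rho of the fold change was −0.61 with intron number and −0.42 with length, beside −0.30 and −0.43 across all tested protein-coding genes. Prkdc, with 85 introns the most divided member, was at −0.17, and Brca2, with 26, at 0.019. These values are from all 6 libraries. Without WT replicate 1 the 5 short members had a median of 0.072, with Rpa2 (−0.057) and Fancl (−0.089) below 0. Members of 6000 bases or more were then at −0.11, those with 20 or more introns at −0.17 and those with fewer than 10 at 0.029. Splicing itself is not visible in values summed per gene.

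No other gene of the same pathways passed either. Of 66 further repair genes 65 were tested, of which 0 rose and 0 fell. All 65 stayed short of the threshold, and their median was −0.0042. Abraxas1, a scaffold of a BRCA1 complex, had the smallest p, at 7.52, 7.40 and 7.14 FPKM in the WT libraries, against 9.12, 8.99 and 8.15 FPKM in the cKO libraries (log2 fold change 0.22, limma p 0.0536 unadjusted and 0.955 adjusted). Its 3 cKO libraries lay above the WT group, as did those of Paxx, an end joining factor, at 2.71, 3.06 and 3.10 FPKM and 3.79, 4.396 and 3.39 FPKM. Among the 65 genes, WT and cKO values did not overlap for 3 that were higher in cKO (4.2% of all genes). The same held for 4 that were lower (3.67% of all genes). Uimc1, which brings that BRCA1 complex to ubiquitin at breaks, was at 12.6, 10.8 and 11.6 FPKM in the WT libraries, against 14.3, 15.9 and 11.8 FPKM in the cKO libraries. Rad9a, part of the checkpoint clamp, was at 8.28, 8.71 and 6.46 FPKM in the WT libraries, against 8.62, 10.6 and 9.04 FPKM in the cKO libraries, and Aplf, an end joining factor, at 7.05, 8.26 and 8.91 FPKM in the WT libraries, against 6.78, 7.48 and 6.50 FPKM in the cKO libraries. The libraries of these 3 overlapped between the groups, with log2 fold changes of 0.24, 0.24 and −0.19.

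The kinase gene Atr was at 17.4, 21.9 and 26.8 FPKM in the WT libraries, against 18.1, 16.7 and 17.2 FPKM in the cKO libraries, with WT replicate 1 inside the cKO range (log2 fold change −0.31, adjusted p 0.955). Without WT replicate 1 its estimate was −0.47, with a limma p of 0.00663 unadjusted and 0.9998 adjusted. Of the 65 other repair genes, 3 were then at an unadjusted limma p under 0.05 (3.61% of all genes), and 0 passed adjusted. The kinase gene Atm was at 8.24, 10.4 and 10.9 FPKM in the WT libraries, against 9.44, 7.19 and 8.76 FPKM in the cKO libraries. Its groups overlapped, at a log2 fold change of −0.20.

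By position, 8 of the 47 genes lie on chromosome 11 (17.0%, against 7.38% of protein-coding genes): Brca1, Rad51c, Rad51d, Rad50, Rpa1, Fancl, Brip1 and Eme1. Gene models of 25 of the 47 overlap another model of the table, 18 of them a protein-coding one. Xrcc6, for instance, contains Desi1 on the opposite strand, which was at 12.4 ± 0.365 FPKM (WT) and 12.8 ± 0.978 FPKM (cKO) (SD, n = 3 each). The Rad54l model shares 2849 bases with that of Lrrc41 (−0.23 on the log2 scale), and Eme1 shares 252 bases with the more abundant Lrrc59. Rad52, Rpa3 and Topbp1 overlap no other gene model of the table, so the values given for them do not share reads in this way.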

How the data were processed

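Ovary RNA of 6 samples was sequenced. The authors deposited FPKM values for 47122 gene models with symbols and GRCm39 coordinates; HISAT2 2.0.5, mm10 and GRCm39 come from lists per the submitters' processing notes. The sources used here give neither counting tool nor annotation release nor strand setting. Groups and replicate numbers came from sample titles, columns from descriptions. FPKM times length gave whole reads (100% of values under 100000 reads within 0.05), 16800421 to 19565275 per library; tested members had at least 143 reads.

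Genes with at least 1 FPKM in at least 3 samples were fitted as log2(FPKM + 1) in limma 3.58.1 (R 4.3.3; eBayes with trend, two-sided, Benjamini-Hochberg over 14589 genes, threshold 0.05); fold changes on this scale understate those of low genes. On data simulated for this comparison with an assumed dispersion of 0.02 (14390 genes), 82% of 2-fold and 30% of 1.5-fold changes were recovered. Of 168 calls there, 18 were false. The simulation held no library that stood apart, as WT replicate 1 did, so these shares are not the power of the real comparison. Bcas2, itself about 2-fold lower, was not called in the real data. Values in all libraries are given for the 4 members of each branch with the smallest p, the 2 with the highest level, those without overlap and 6 set genes. Of other repair genes the 6 with the smallest p and Atm and Atr are named; 1 further gene of this rule is not reported here. Marker lists are given as sums. Members, branches and lists were chosen with earlier results of these data known. Alternatives were other pseudocounts (0.1, 0.5), no filter or 5 FPKM, TPM, median-of-ratios or quantile scaling, a replicate block, limma-voom on recovered reads and each library left out.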

Additional observations from a re-analysis of the deposited data

How the results depend on the processing

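No repair or Fanconi gene passed at an adjusted p under 0.05 under any of the 15 alternatives, and Bcas2 stayed lower in cKO at an unadjusted p under 0.05 in all of them (log2 fold change −1.16 to −0.86 leaving out 1 library). Of the 45 estimates 17 kept 1 sign in all settings tried and 28 did not. Members at an unadjusted p under 0.05 numbered 0 in the main comparison, 1 with a pseudocount of 0.1 or median-of-ratios scaling (428 and 454 of all 14589 genes), 2 after quantile normalization (458 of all genes) and 0 to 1 leaving out 1 library (Rad52, Rpa3 or Prkdc). Members below 0 numbered 28, but 36 after rescaling to TPM, which moved the median of all genes to −0.082, 22 with limma-voom, 23 after quantile normalization and 18 without WT replicate 3. The break signalling median became −0.18 after rescaling to TPM. Leaving out 1 library, branch medians ran −0.098 to 0.031 (strand pairing), −0.12 to 0.063 (resection), −0.093 to 0.037 (Fanconi), −0.12 to 0.028 (nucleases), −0.094 to 0.024 (end joining) and −0.12 to −0.055 (signalling). Over all genes the count at an adjusted p under 0.05 was 0 to 1 leaving out 1 library, and 443 at an unadjusted p became 1147 with no filter, 254 at 5 FPKM and 253 to 1056 leaving out 1 library. Deviations of same-numbered samples correlated at r = 0.22, 0.014 and −0.028, and those of unlike-numbered samples at −0.34 to 0.32. The titles give only a replicate number, and these correlations cannot show whether same-numbered samples shared a litter or batch. With the replicate block 0 members passed and 432 genes had an unadjusted limma p under 0.05. The cause of these shifts was not tested. The precision is limited by the spread of 3 libraries a group: the adjusted test did not call even the change in Bcas2.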
